A study of Mus musculus with 50 samples.

Results

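Colons of mice given TNBS and A1007 at 30 mpk were set against colons of sham mice, to show which transcripts still lay away from the sham level at the middle dose and whether any lay beyond it. The members were taken from the sample titles: 10 libraries labelled TNBS with A1007 30 mpk and 10 labelled sham, 20 of the 50 libraries in the series. The other 30 libraries come from TNBS mice given vehicle or A1007 at 10 or 90 mpk, 10 in each group. Every library is poly(A) RNA from the colon of BALB/c mice (written BALBC in the labels), and all are labelled batch 1. Each library has its own name and is taken here as 1 mouse, which the labels do not state. The series describes A1007 (in full YUQ-A1007) as an orally active agonist of the aryl hydrocarbon receptor (AhR), and places the tissue in the distal colon. The dose unit is given as mpk. The labels used here give no age, sex, treatment schedule or time after TNBS, and do not say what the sham mice received.

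TNBS (2,4,6-trinitrobenzenesulfonic acid) is a hapten that, given into the rectum, provokes T cell-driven, patchy inflammation through the colon wall, followed by repair and scarring. AhR is a ligand-activated transcription factor which, paired with ARNT, switches on enzymes of xenobiotic metabolism such as Cyp1a1 and its own repressor Ahrr. In the gut it is known for roles in lymphocytes and epithelium. Whole colon holds epithelium, immune cells, connective tissue, muscle and nerve, so in these bulk samples more cells of a type and more RNA per cell cannot be told apart.

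Library totals were 16031757 to 20391034 counts in sham and 15494095 to 18362878 at 30 mpk. No pair of libraries agreed within sampling noise. On the first principal component of the 20 libraries, which held 42.6% of the variance, 30 mpk replicate 1 lay nearest to the sham mice. Xist, the long RNA of the inactive X chromosome, was at 0.1 FPKM (fragments scaled by exonic length and library total) in that library, while the other 19 libraries all held it and no Y-linked count was found in replicate 1. Sham replicate 5 carried the highest sham levels of several inflammatory genes named below.

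One property of the libraries moved with the groups and touches every count that follows. The mean log2 CPM (counts scaled to the library total) of genes over 6000 bases minus that of genes under 1500 bases was 2.378 to 2.574 in sham (median 2.522) and 1.856 to 2.34 at 30 mpk (median 2.078). No 30 mpk library reached the lowest sham library. Vehicle mice spanned 1.72 to 2.576. The numbers in the library names, whose meaning is not given, were all higher in sham than at 30 mpk, and those of vehicle overlapped both. The median log2 fold change of 30 mpk against sham ran from 0.35 in genes up to 1000 bases to -0.28 in the genes over 12000 bases, and from -0.14 to 0.28 between the lowest and highest class of GC content. Short genes were called higher more often than long ones: 47.9% of genes up to 1000 bases were called higher, against 6.28% of the longest class. What lies behind this was not tested. A second fit, added after the data were seen, takes a smooth function of length and GC out of each library, and its effect is given where it ends or makes a call against sham of a gene described here. It would also take out any true difference that runs with length.

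**Figure D1:**
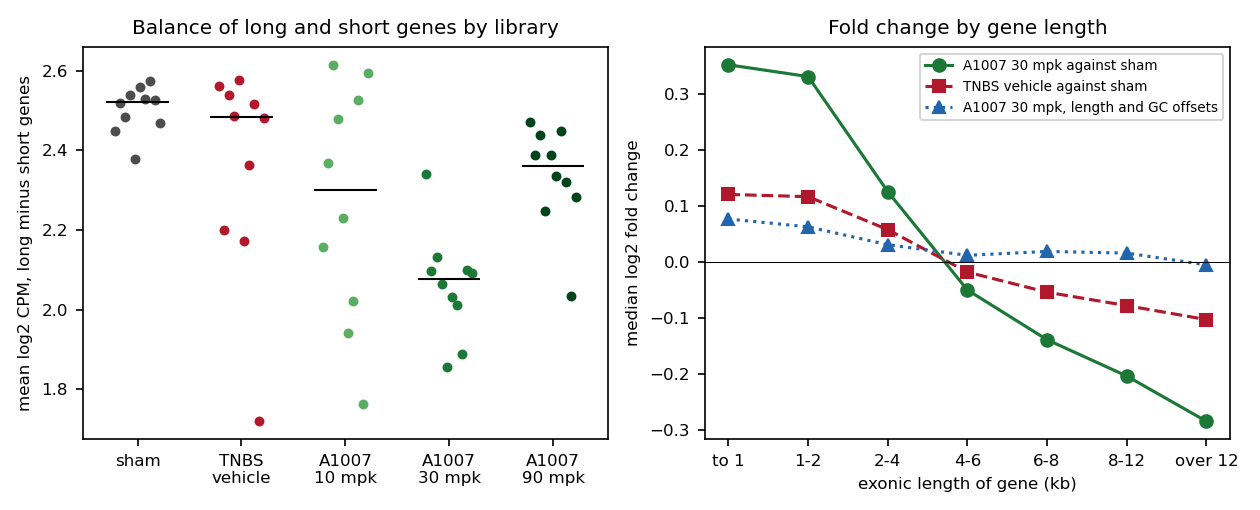
Left, mean log2 CPM of genes over 6000 bases minus that of genes under 1500 bases, 1 point a library, bar at the group median; right, median log2 fold change against sham in 7 classes of exonic length. The 30 mpk libraries lie at 1.856 to 2.34, below all sham libraries (2.378 to 2.574), and the fold change at 30 mpk falls with length and is nearly level with length and GC taken out.

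Of 16788 genes tested, 5248 were higher at 30 mpk than in sham (31.3% of the genes tested) and 5001 lower (29.8%), by edgeR's quasi-likelihood test at a Benjamini-Hochberg adjusted p under 0.05. In all, 61% of the genes tested were called, so a call by itself singles out little. At least 2-fold differences were found in 870 genes (5.18%), with 474 higher (2.82%) and 396 lower (2.36%). The 10 libraries of each group did not overlap in 1757 genes (10.5%). With length and GC taken out, 4947 genes were higher (29.5%) and 4020 lower (23.9%). Vehicle mice, compared with the same sham mice, had 3045 genes higher (18.1% of 16820 tested) and 2457 lower (14.6%). Since the sham mice are shared, the distances of the vehicle and the 30 mpk groups from sham are given side by side, and their difference was tested directly between the TNBS groups. That test called 2522 genes higher (14.3% of 17623) and 3101 lower (17.6%) at 30 mpk than in vehicle.

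**Figure D2:**
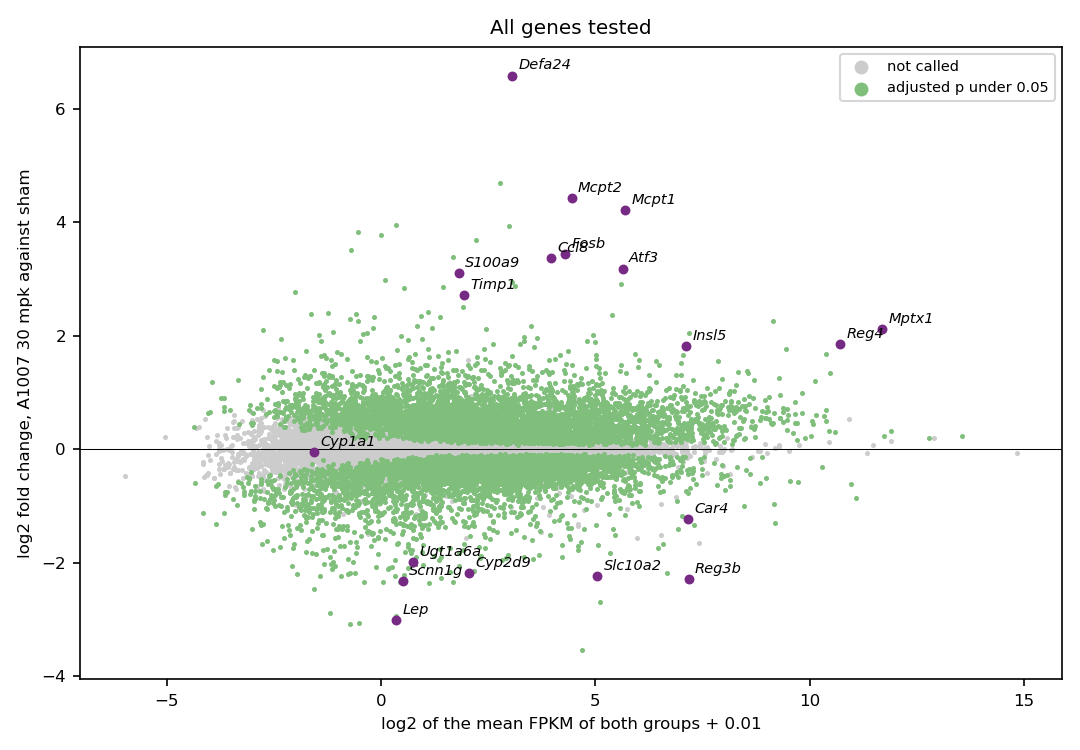
Log2 fold change of 30 mpk against sham for each of the 16788 genes tested (y axis) against the log2 of the mean FPKM of both groups (x axis), with called genes in green and some of the genes described here in purple. Of the genes in purple, Defa24, the mast cell proteases Mcpt1 and Mcpt2 and the immediate early genes Fosb and Atf3 stand high. Lep, Reg3b and Slc10a2 stand low, and the AhR target Cyp1a1 lies at -0.04.

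Mast cell proteases lay far above sham at 30 mpk. Of 14 listed markers of mast cells and eosinophils 10 passed the filter on low counts, 7 were higher and 2 lower, and without a filter 8 of 14 were higher. A marker that passed only through its level at 30 mpk had to differ, so the count and the median of those that passed (log2 fold change 2.30, beside 0.01 for all genes tested) carry no weight. Mcpt1, a granule chymase of mucosal mast cells (chr14:56255428-56257841, GRCm39), was at 1.97 FPKM in the lowest sham mouse, 3.63 at the median and 21.58 in the highest, against 21.06, 106.5 and 150.2 at 30 mpk. The ranges touch only because sham replicate 5 was the highest sham mouse and 30 mpk replicate 1 the lowest treated one. On the log2 scale Mcpt1 was higher by 4.21 ± 0.44 (SE, n = 10 against 10 mice, edgeR adjusted p = 2.98e-07), and 4.81 without sham replicate 5. Its relative Mcpt2 ran from 0.89 to 7.82 FPKM in sham and from 9.7 to 65.61 at 30 mpk, without overlap, a log2 fold change of 4.43 ± 0.44 (edgeR adjusted p = 1.39e-07). Mcpt4, a chymase of connective tissue mast cells (log2 fold change 3.38), Fcer1a, the IgE-binding chain of the high-affinity IgE receptor (3.96), and Cpa3, mast cell carboxypeptidase (2.85), also rose with no overlap between the groups. Fcer1a held 27 counts over all sham libraries and 395 over those at 30 mpk. It passed the filter only through its 30 mpk level, so its difference carries no weight. Mcpt1 and Mcpt2 are close relatives and reads could be split between them.

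Vehicle mice had lower medians and were far more scattered. Mcpt1 ran from 0.53 to 545.8 FPKM in vehicle, the highest in replicate 7, with a median of 37.56, and its log2 fold change against sham was 4.14. The vehicle median of Mcpt2 was 17.96 FPKM beside 44 at 30 mpk, and its highest vehicle value, 254.8, also came from replicate 7. The difference between 30 mpk and vehicle was 0.08 (95% interval -1.37 to 1.53), and 0 of the 10 markers differed between these groups by edgeR, with 0 at an unadjusted p under 0.05. The interval for Mcpt1 holds differences of more than 2-fold either way. For Mcpt2 the difference from vehicle was -0.01 by edgeR and 1.534 between the group medians. Kit and Siglecf, a receptor of mast cells and of interstitial cells of Cajal and a lectin of eosinophils, were the 2 that fell, and the call of Kit ended with length and GC taken out (log2 fold change -0.18, adjusted p = 0.109). Below the filter, mean FPKM in sham and at 30 mpk was 0.016 and 0.008 for the eosinophil granule gene Epx, 0.338 and 0.418 for Prg2, 0.012 and 0 for Ear6 and 0.156 and 0.55 for the mast cell tryptase Tpsb2.

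Ccl8, a chemokine for T cells and eosinophils, was at 1.61, 2.665 and 6.2 FPKM in sham and at 10.77, 27.33 and 69.3 at 30 mpk (lowest, median and highest mouse). No treated mouse overlapped sham, and the log2 fold change was 3.36 ± 0.33 (adjusted p = 7.9e-08). Vehicle stood at 2.78 above sham and the difference between 30 mpk and vehicle was 0.59 (95% interval -0.31 to 1.502). Rnase2a, an eosinophil-associated ribonuclease, rose by 3.69 on the log2 scale, beside 2.58 in vehicle. Alox15, a lipoxygenase of eosinophils and alternatively activated macrophages, rose by 1.61, beside 1.91 in vehicle. Neither was called between 30 mpk and vehicle by edgeR (1.125, adjusted p = 0.196, and -0.29, adjusted p = 0.619). Retnla, a secreted protein of alternatively activated macrophages, was picked after its values were seen. Its median was 10.97 FPKM in sham, 9.6 in vehicle and 40.17 at 30 mpk, with a log2 fold change against sham of 2.01 ± 0.36 (adjusted p = 0.000103) and against vehicle of 1.99 (adjusted p = 0.00301).

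**Figure D3:**
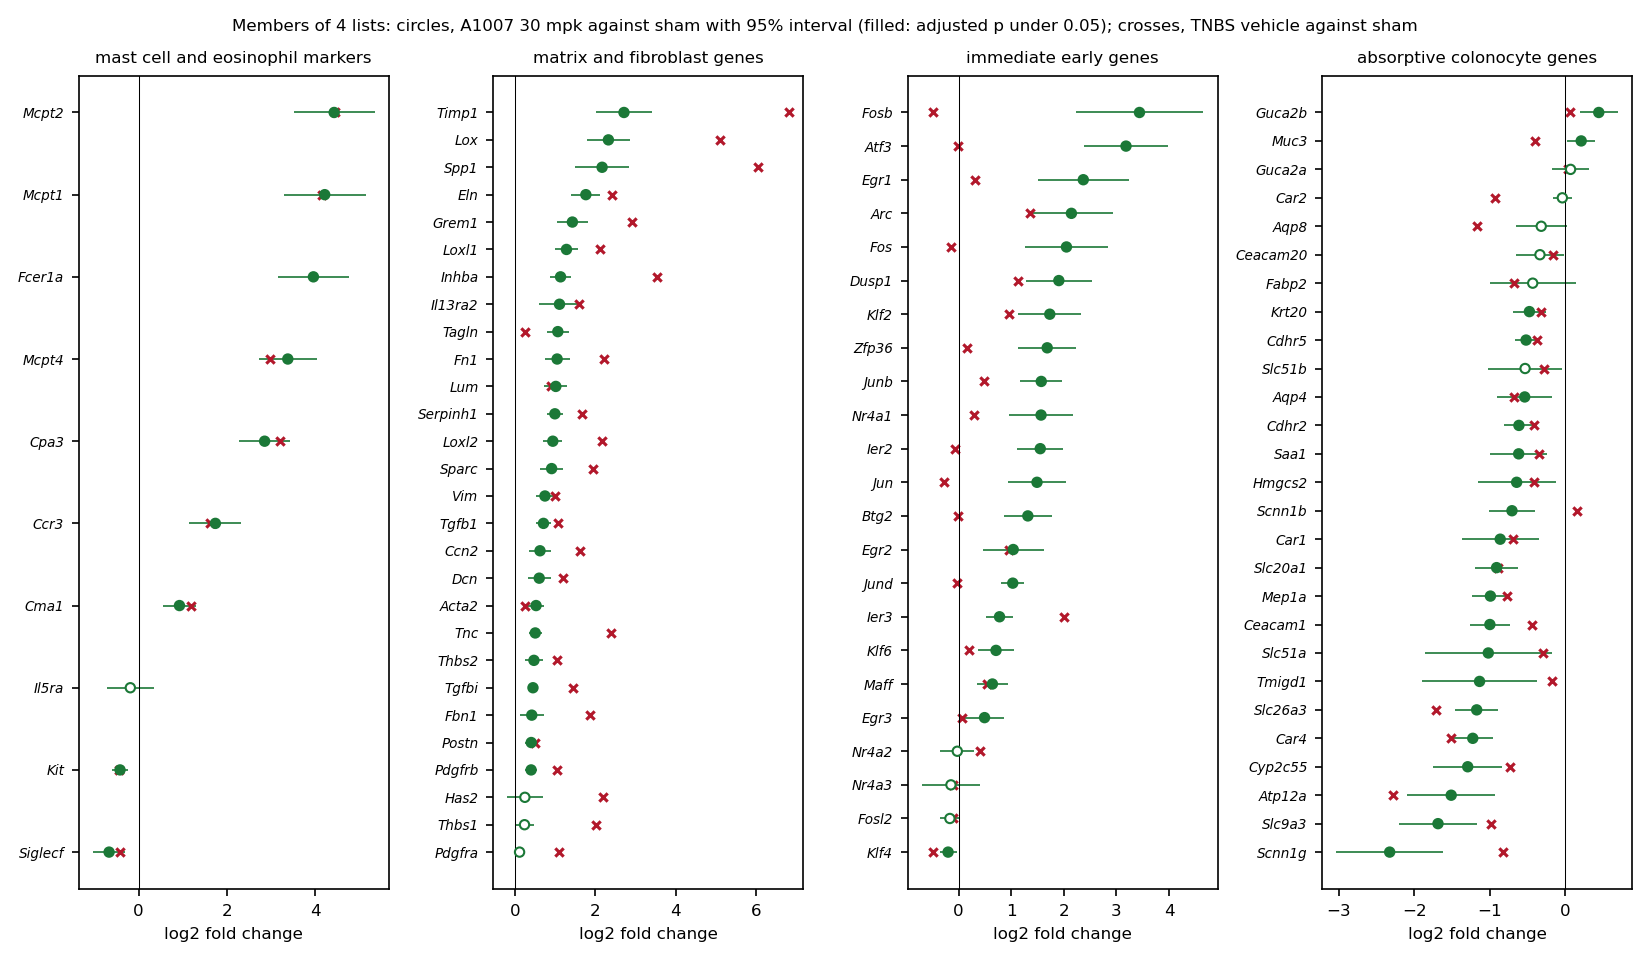
Log2 fold change against sham for tested members of 4 lists (1 matrix gene is not shown), with circles for 30 mpk (95% interval, filled where the adjusted p was under 0.05) and crosses for vehicle. Circles and crosses lie close together for the mast cell proteases, while matrix genes such as Timp1 (2.72 at 30 mpk, 6.82 in vehicle) lie nearer sham at 30 mpk and immediate early genes such as Atf3 lie away from both.

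Neutrophil genes were near the sham floor but not at it. Only 6 of 16 listed markers passed the filter, and all 6 were called higher; without a filter 9 of 16 were, so the count of those that passed carries no weight. S100a9, a calprotectin subunit, was at 0.09, 0.57 and 1.88 FPKM in sham and 0.58, 2.525 and 28.31 at 30 mpk, and the groups overlapped. Its log2 fold change was 3.10 ± 0.78 (adjusted p = 0.00213). Vehicle mice had a median of 189.1 FPKM, and 30 mpk was lower than vehicle by a log2 fold change of -6.98 (adjusted p = 0.000185). Mmp9, a gelatinase stored in neutrophil granules, ran from 0.37 to 0.8 FPKM in sham and from 1.31 to 4.21 at 30 mpk, without overlap. S100a8 averaged 0.242 FPKM in sham and 1.52 at 30 mpk, Ngp 0.005 and 0.02, and Mpo and Elane at most 0.027 in either group. Against vehicle, 5 of the 6 tested markers were lower at 30 mpk.

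The cytokines gave a like picture in part. Of 18 listed, 6 passed the filter and 3 were higher. Without a filter 7 of 18 were higher, so the count of those that passed carries no weight. Il1b, the main secreted cytokine of the inflammasome, was at 0.6, 1.11 and 2 FPKM in sham and 1.61, 2.415 and 7.22 at 30 mpk (log2 fold change 1.49 ± 0.26, adjusted p = 3.68e-05). In vehicle its median was 12.92. The call was lost when all 50 mice entered the fit (adjusted p = 0.0801). The other 2 called among those that passed were Il18, which rose by 0.63, and Tslp, an epithelial cytokine upstream of type 2 responses. Tslp rose by 0.98, beside 0.34 in vehicle. It was higher at 30 mpk than in vehicle by 0.65, not called (edgeR adjusted p = 0.0515). Il6 averaged 0.017 FPKM in sham, 0.171 at 30 mpk and 6.47 in vehicle. Ifng, Il17a, Il17f and Il22 averaged at most 0.132 in either group.

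Chemokines and macrophage markers stayed above sham in larger numbers. Of 24 chemokines tested 17 were higher and 1 lower (12 and 0 with length and GC taken out). Monocyte attractants Ccl2 (log2 fold change 1.31) and Ccl7 (1.11) and the neutrophil attractant Cxcl1 (2.05) rose, from sham medians under 2 FPKM. Of 19 macrophage markers 14 were higher and none lower, with a median of 0.47 beside 1.55 in vehicle. C1qb, a chain of the complement starter C1q made by resident macrophages, ran from 18.36 to 26.14 FPKM in sham and from 34.39 to 56.67 at 30 mpk, so the groups did not overlap. Its log2 fold change was 1.05 ± 0.08 (adjusted p = 2.18e-09), and 0.64 with length and GC taken out. C1qc and C1qa rose by 1.17 and 1.01, the latter by 0.53 with length and GC taken out. Arg1, an enzyme of activated macrophages, rose by 1.06 at 30 mpk beside 6.08 in vehicle. Cd68 rose by 0.31, a call that ended with length and GC taken out (0.00). Against vehicle 14 of the 19 were lower at 30 mpk and none higher.

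Lymphocyte genes were raised. Of 16 T cell and cytotoxic markers 10 were higher and none lower. Granzyme B, a protease of cytotoxic granules, ran from 0.03 to 0.48 FPKM in sham and from 0.64 to 2.31 at 30 mpk, without overlap (Gzmb, log2 fold change 2.04 ± 0.30, adjusted p = 4.46e-06). Granzyme A followed (Gzma, 2.41). Cd4 and Foxp3, marking helper and regulatory T cells, lay at 0.04 and -0.10 and were not called. Of 16 B and plasma cell markers 11 were higher. Cd79b, part of the B cell receptor, was at 5.15, 9.28 and 27.85 FPKM in sham, 4.82, 13 and 26.93 in vehicle, and 9.32, 25.88 and 43.56 at 30 mpk. It overlapped widely, yet 30 mpk was above sham by 1.40 ± 0.29 (adjusted p = 0.000435) and above vehicle by 1.13 (adjusted p = 0.013). Cd79a and Ms4a1 behaved alike against sham (1.25 and 0.98), while Jchain and Igha, genes of IgA plasma cells, were not called (0.21 and 0.42).

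Antigen presentation genes of class II rose with the B cell genes. H2-Aa, a class II chain, was at 18.42, 20.2 and 38.18 FPKM in sham, the highest being replicate 3 alone, and at 28.06, 50.3 and 74.27 at 30 mpk. The log2 fold change was 1.18 ± 0.15 (adjusted p = 2.26e-06), beside 0.25 in vehicle (adjusted p = 0.292) and 0.94 against vehicle (adjusted p = 0.00238). Cd74, the invariant chain, rose by 1.03 and Ciita, the class II transactivator, by 0.63. Of the interferon-induced genes on the same list none of the 10 was called in the first edgeR fit. In that fit 1, Isg15, had an unadjusted p under 0.05. With length and GC taken out 8 of the 16 genes on the list were higher in place of 6, so interferon-induced genes were then among those called. Ifit1, an antiviral effector, lay at -0.22. Cd79b, Ms4a1 and other B cell genes moved with class II, and their part in the class II rise was not tested.

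The matrix remained above sham, at a smaller distance than in vehicle. Of 19 collagens 14 were higher and none lower (median 0.62 beside 1.37 in vehicle), and of 29 matrix and fibroblast genes 25 were higher and none lower (median 0.75 beside 1.88). Col1a1, a chain of fibrillar collagen I, ran from 13.7 to 25.17 FPKM in sham (median 20.13), from 27.45 to 82.02 at 30 mpk (median 44.63) and from 69.69 to 261.3 in vehicle. The 30 mpk mice lay wholly above sham. The log2 fold change was 1.35 ± 0.18 (adjusted p = 3.21e-06), and against vehicle it was -1.497 (95% interval -2.05 to -0.95, adjusted p = 0.000105). Col4a1, a basement membrane collagen, was 0.91 above sham and 1.15 below vehicle on the log2 scale. Lox, which cross-links collagen and elastin, had medians of 0.85, 3.555 and 20.42 FPKM in sham, 30 mpk and vehicle, and Timp1, an inhibitor of metalloproteinases, of 1.06, 5.87 and 48.46. Both were free of overlap with sham. Eln, the elastin gene, kept more of its distance, at 1.77 ± 0.17 above sham beside 2.41 in vehicle. Against vehicle, 16 of the 19 collagens and 22 of the 29 matrix genes were lower at 30 mpk, and 1 matrix gene, Tagln, was higher.

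Some genes of repair were not called against sham. Has2, a hyaluronan synthase, and Thbs1, a matrix glycoprotein, were not called (0.25 and 0.24, beside 2.19 and 2.02 in vehicle). Thbs1 was called higher with length and GC taken out (0.38, adjusted p = 0.00833). Of 15 metalloproteinases and their inhibitors 12 were higher, among them Mmp14 (0.58), Mmp3 (1.09) and Mmp10 (1.28), and 1 was lower. With length and GC taken out 9 were higher and 1 lower. The exception was Timp3, an inhibitor bound to the matrix, which ran from 9.62 to 13.65 FPKM in sham and from 3.86 to 9.33 at 30 mpk (log2 fold change -0.79, adjusted p = 4.33e-06). Of 17 endothelial and lymphatic genes 10 were higher, such as Tie1 (0.76) and Plvap (0.90, and 0.50 with length and GC taken out), and none lower. Smoc2, a secreted matrix protein also found in crypt base cells, rose from 3.56 to 4.6 FPKM in sham to 6.39 to 8.23 at 30 mpk. Its groups did not overlap and its error was small (0.87 ± 0.05, adjusted p = 5.15e-10).

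**Figure D4:**
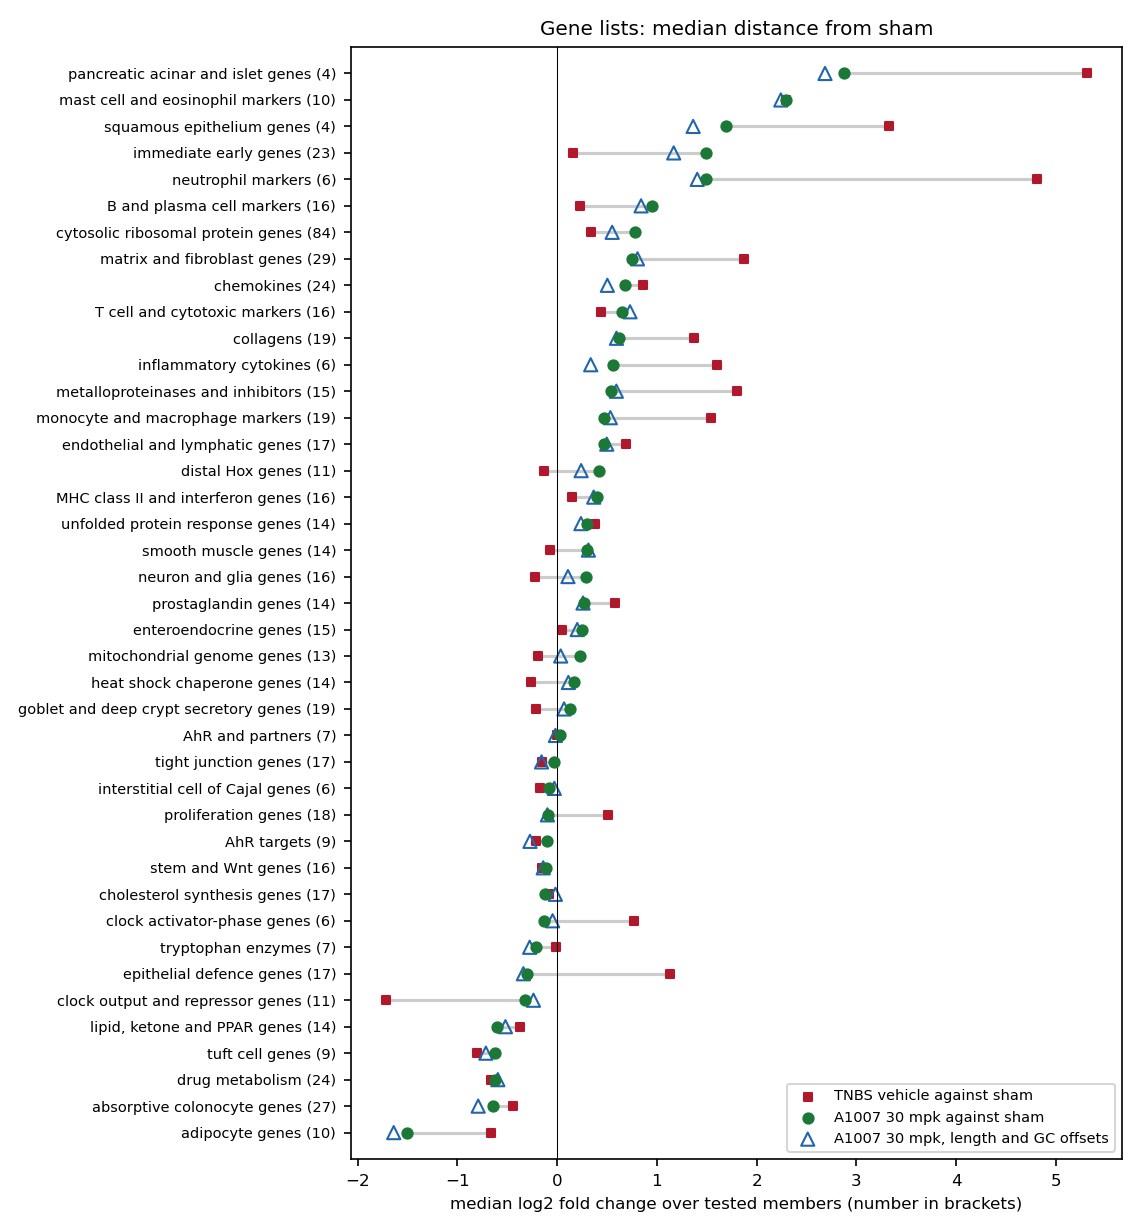
Median log2 fold change from sham over the tested members of each list (number tested for 30 mpk in brackets), for 30 mpk (green circles), 30 mpk with length and GC taken out (blue triangles) and vehicle (red squares). Matrix, neutrophil and macrophage lists lie nearer sham at 30 mpk than in vehicle, and the immediate early list lies above both sham and vehicle. The mast cell list lies at 2.30 over 10 members at 30 mpk and at 2.29 over 8 members in vehicle, so the medians are not over like sets. Lists with few members tested were selected by the low-count filter.

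Immediate early genes rose beyond sham in the 30 mpk mice and lay near the sham level in vehicle. These are transcription factors and feedback genes, such as the AP-1 members Fos, Fosb and Junb, that cells switch on within minutes of a stimulus. Of 23 tested 19 were higher and 1 (Klf4) lower, with a median of 1.49 beside 0.16 in vehicle, and 19 and 1 remained with length and GC taken out (median 1.17). Against vehicle 14 were higher and 2 lower. The bases before the start sites of 3 of them are shown because the list moved together. The 250 bases upstream of the RefSeq start are printed on the gene's strand (GRCm38.p6), with any match to TGACGT on either strand in capitals. This motif is the core of the site bound by CREB and ATF factors, and a match is only a description. The windows are chr1:191183334-191183583 (minus strand) for Atf3, chr12:85473640-85473889 (plus strand) for Fos and chr7:19310046-19310295 (minus strand) for Fosb.

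Atf3: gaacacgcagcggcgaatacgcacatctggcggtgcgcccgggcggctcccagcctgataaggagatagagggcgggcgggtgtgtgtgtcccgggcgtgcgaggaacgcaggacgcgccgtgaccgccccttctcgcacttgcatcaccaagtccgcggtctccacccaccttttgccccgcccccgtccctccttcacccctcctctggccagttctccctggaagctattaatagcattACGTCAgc
Fos: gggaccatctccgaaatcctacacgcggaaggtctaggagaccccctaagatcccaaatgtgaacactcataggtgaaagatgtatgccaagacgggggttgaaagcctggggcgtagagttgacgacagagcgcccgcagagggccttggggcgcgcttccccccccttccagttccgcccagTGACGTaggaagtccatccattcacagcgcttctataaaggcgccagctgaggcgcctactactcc
Fosb: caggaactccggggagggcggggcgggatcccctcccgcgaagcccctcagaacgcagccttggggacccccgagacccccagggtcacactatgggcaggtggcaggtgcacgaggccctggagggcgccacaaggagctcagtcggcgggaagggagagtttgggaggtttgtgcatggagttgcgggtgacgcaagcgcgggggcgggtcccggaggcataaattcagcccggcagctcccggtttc

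Atf3 holds 1 match, 8 bases before its start (ACGTCA, the motif read on the other strand), Fos holds 1 and Fosb none. Over the list, 19 of 24 genes had a RefSeq window and 7 of these held TGACGT, beside 7.29% of all 27025 genes. In all 6 motifs were searched on both strands, and TGACGT was picked for printing after the counts were seen. The full site TGACGTCA, which contains it, was in 3 of 19, beside 1.77% of all genes. The AhR core GCGTG was in 10 of 19 (30.9% of all genes), the E-box CACGTG in 5 (6.86%), and neither the longer AhR site TTGCGTG (1.08%), which contains the AhR core, nor the searched form of the CArG box of serum response factor (0.074%) was found in any.

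Atf3, a stress-induced repressor, was at 6.07, 8.82 and 16.71 FPKM in sham and 19.32, 69.2 and 195.6 at 30 mpk. All 10 treated mice lay above all sham mice, and the log2 fold change was 3.18 ± 0.38 (adjusted p = 1.42e-06). In vehicle it ran from 4.63 to 15.7, a log2 fold change of -0.01 against sham, and 30 mpk was 3.19 above vehicle (95% interval 2.19 to 4.20, adjusted p = 2.2e-05). Fosb was at 0.56, 2.11 and 10.64 FPKM in sham and 9.18, 28.11 and 68.29 at 30 mpk, with a slight overlap (3.44 ± 0.58, adjusted p = 5.61e-05). Fos had a median of 56 FPKM in sham, 35.53 in vehicle and 195.6 at 30 mpk (2.05 ± 0.37, adjusted p = 0.000123), and Egr1, a zinc finger factor of the same response, of 10.8, 10.12 and 56.7 (2.37). Jund, the most steadily expressed AP-1 member, did not overlap between the groups, with 73.44 to 100.2 in sham and 121.6 to 223.2 at 30 mpk. Its log2 fold change was 1.03 against sham, falling to 0.42 with length and GC taken out, and 1.08 against vehicle, falling to 0.68. Hbegf, a ligand of the EGF receptor induced in the same way, rose by 2.88 with no overlap. Fosl2, Nr4a2 and Nr4a3 were not called.

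The other doses did not line up with these levels. Medians of Atf3 were 34.01 FPKM at 10 mpk and 6.37 at 90 mpk, and of Fosb 12.8 and 3.165. Those of Fos were 109.8 and 62.49. At 10 mpk the mice were spread from sham-like to 30 mpk-like levels (Atf3 from 6.09 to 119.4), and at 90 mpk the highest Atf3 value was 15.79, below the lowest at 30 mpk. Differences between doses were not tested here.

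**Figure D5:**
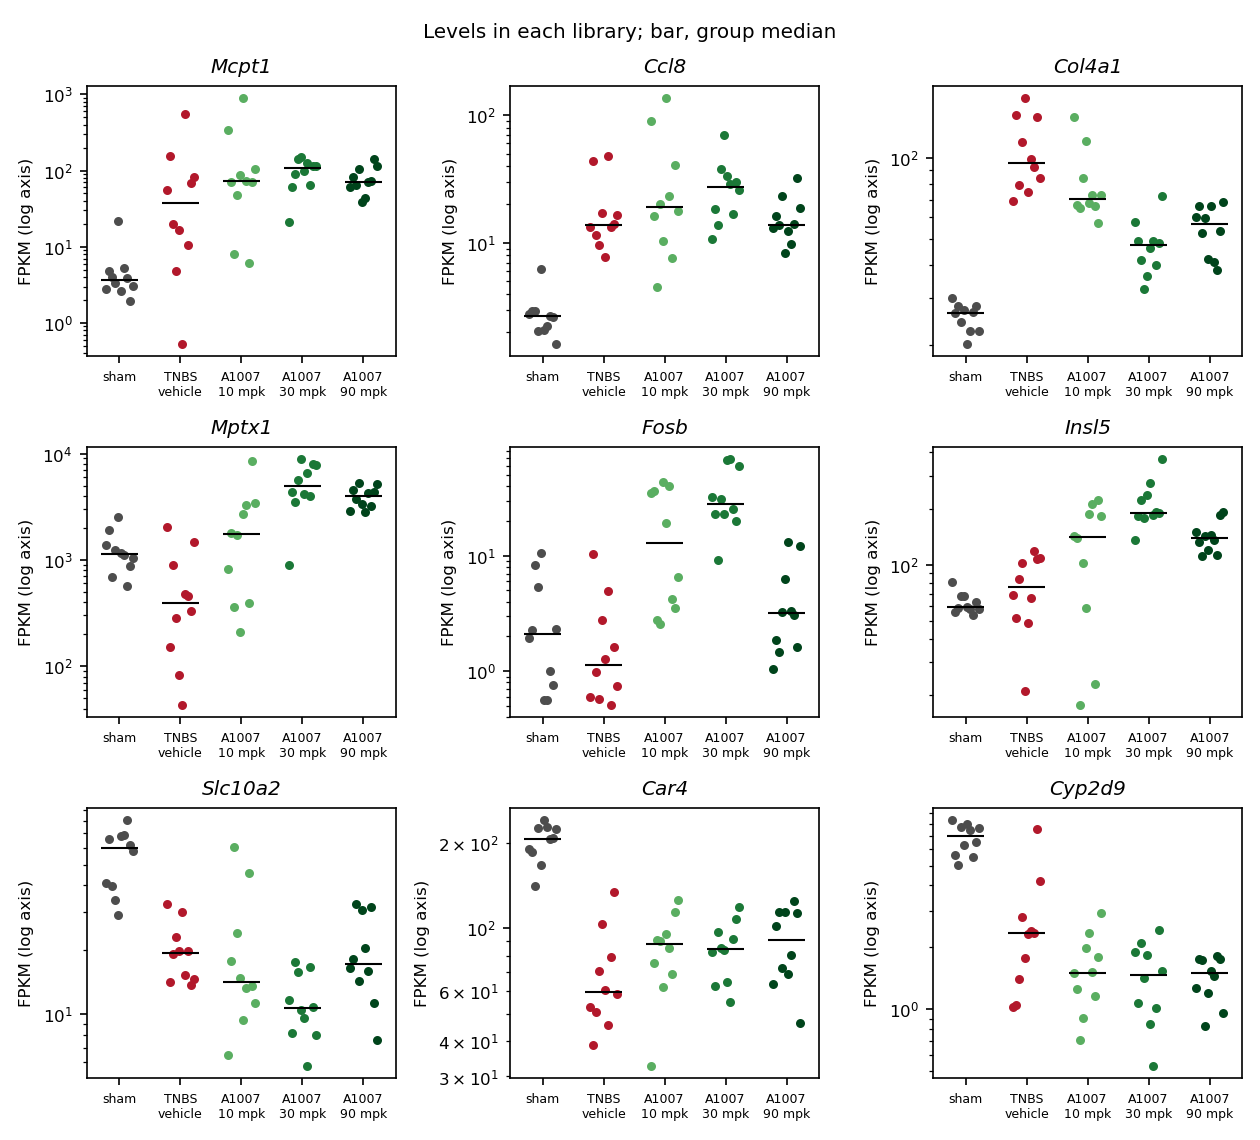
FPKM of 9 genes in each library (log axis) in the sham, vehicle and 3 dose groups, 1 point a mouse, bar at the group median. Mcpt1 and Ccl8 lie above sham at 30 mpk and in vehicle, Col4a1 lies between sham and vehicle, Mptx1, Fosb and Insl5 lie above both at 30 mpk, and the medians of Slc10a2, Car4 and Cyp2d9 lie below sham in all TNBS groups.

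Several secretory genes of the deep crypt rose beyond sham as well. Mptx1, a mucosal pentraxin secreted by crypt cells, was at 569.7, 1141 and 2553 FPKM in sham and 903.2, 4969 and 8824 at 30 mpk. The lowest treated mouse was replicate 1, and the groups overlapped. Its log2 fold change was 2.12 ± 0.34 (adjusted p = 3.56e-05). In vehicle the median was 396, and 30 mpk exceeded vehicle by 3.16 (adjusted p = 0.000127). Its relative Mptx2 (1.35), the ribonuclease Ang4 (1.67) and the lectin Itln1 (0.86) were higher than sham and, by 2.47, 2.77 and 1.93, higher than vehicle; the call of Itln1 against sham ended with length and GC taken out. Reg4, a lectin of deep crypt secretory cells, ran from 477.1 to 1520 FPKM in sham and from 1425 to 4611 at 30 mpk (1.85 ± 0.24, adjusted p = 2.88e-06). Its only overlap came from sham replicate 5. Defa24, a Paneth cell defensin of a family of near-identical copies, rose most of all named genes: 0 to 0.49 FPKM in sham (12 counts in all) and 1.71 to 50.97 at 30 mpk, with a log2 fold change of 6.58 ± 0.78 (adjusted p = 9.21e-07). With so few sham counts the size of that rise depends on the fit's prior count. Defa24 passed the filter only through its 30 mpk level, so its call and its rank carry no weight.

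The rest of the goblet genes did not move one way. Of 19 on the goblet and deep crypt list 8 were higher and 6 lower, beside 31.3% higher and 29.8% lower of all genes. With length and GC taken out 5 were higher and 4 lower, beside 29.5% and 23.9% of all genes. Muc2, the gel-forming mucin, fell by 0.55 and Zg16, a granule lectin that keeps bacteria from the epithelium, by 0.32 (0.59 with length and GC taken out); the call of Muc2 ended with length and GC taken out. Ern2, the stress sensor IRE1-beta of goblet cells, ran from 17.42 to 24.13 FPKM in sham and from 7.8 to 16.75 at 30 mpk, without overlap (-0.89 ± 0.11). Agr2 and Tff3, a disulfide isomerase and a trefoil peptide of goblet cells, rose by 0.49 and 0.55; with length and GC taken out Agr2 rose by 0.30 and the call of Tff3 ended. Reg3b, an antibacterial lectin, was at 9.2, 151 and 1052 FPKM in sham and 0.1, 39.9 and 131.7 at 30 mpk, and was lower than sham by -2.29 ± 0.70 on the log2 scale (adjusted p = 0.00872). The sham spread was wide, and without sham replicate 6 the fold change was -1.62. Slpi, a secreted protease inhibitor, rose without overlap (1.86), beside 4.52 in vehicle. Lcn2, the siderophore-binding lipocalin used as a marker of colitis, had medians of 0.425, 1.305 and 16.38 FPKM in sham, 30 mpk and vehicle; its call was lost with all 50 mice in the fit (adjusted p = 0.179).

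Of 15 hormone cell genes tested 7 were higher and 4 lower, beside 31.3% higher and 29.8% lower of all genes. With length and GC taken out 5 were higher and 5 lower, beside 29.5% and 23.9% of all genes. The list thus did not move one way. Insl5, an orexigenic peptide of colonic L cells, was at 53.58, 59 and 80.96 FPKM in sham and 136.3, 190 and 367.8 at 30 mpk. Every treated mouse lay above every sham mouse. Its log2 fold change was 1.82 ± 0.14 (adjusted p = 1.21e-08), beside 0.33 in vehicle, and 1.51 against vehicle (adjusted p = 0.00054). Pyy, a satiety peptide of the same cells, was free of overlap with sham (1.30 ± 0.12). It stood 0.82 above sham in vehicle, and 30 mpk differed from vehicle by 0.50 (adjusted p = 0.184). In contrast Tph1, the rate-limiting enzyme of serotonin in enterochromaffin cells, ran from 3.03 to 4.71 FPKM in sham and from 1.3 to 2.83 at 30 mpk (-1.02 ± 0.11, adjusted p = 7.07e-08), and Chgb, a granule protein, fell by 0.65.

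The cytosolic ribosomal protein genes rose together. This list was added after the data were seen. Of 84 tested 83 were higher, none lower, and 57 had groups that did not overlap; the median was 0.78, beside 0.34 in vehicle. They are short genes, with a median exonic length of 1754.5 bases against 4025 for all genes tested, and with length and GC taken out 80 were higher with a median of 0.55. Rplp0, a stalk protein often used as a reference gene, ran from 219.4 to 287.8 FPKM in sham and from 314.5 to 452.6 at 30 mpk (0.71 ± 0.07, adjusted p = 2e-08, and 0.44 with length and GC taken out). Mitochondrially encoded genes split, with 7 of 13 higher and 3 lower, beside 31.3% and 29.8% of all genes. With length and GC taken out these counts were 2 and 4, beside 29.5% and 23.9% of all genes.

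Smooth muscle genes were in part higher. Of 14 smooth muscle genes 8 were higher and 1 lower (median 0.30 beside -0.07 in vehicle). Tpm2, a tropomyosin, was at 180, 229.3 and 283.6 FPKM in sham and 208.2, 365.8 and 499.4 at 30 mpk, overlapping at the low end (0.70 ± 0.11, adjusted p = 1.88e-05), while the myosin chain gene Myh11 was not called (-0.17). Cnn1 and Des rose by 0.75 and 0.85. Of 16 neuron and glia genes 6 were higher and 3 lower. These counts were 4 and 1 with length and GC taken out, and 9 and 1 without 30 mpk replicate 1. Of 6 genes of the interstitial cells of Cajal 2 were lower, and with length and GC taken out 2 were higher and 1 lower. In the first fit the shares of both lists were near or under the 31.3% higher and 29.8% lower of all genes. The sum of the smooth muscle genes was 1515 to 2358 FPKM in sham and 1591 to 3579 at 30 mpk. How much muscle each sample held, and its part in the other results, was not tested.

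Transport genes of absorptive colonocytes lay below sham. Of 27 tested 19 were lower and 2 higher, with a median of -0.64 beside -0.44 in vehicle, and 23 and 1 with length and GC taken out. Car4, a carbonic anhydrase on the surface of mature colonocytes, was at 140.6, 206.8 and 240.2 FPKM in sham and 55.04, 84.6 and 118.9 at 30 mpk. The groups did not overlap (-1.23 ± 0.13, adjusted p = 1.26e-07). Vehicle lay at -1.51, and the difference between 30 mpk and vehicle was 0.30 (95% interval -0.14 to 0.74). Slc26a3, the chloride and bicarbonate exchanger, fell by 1.17, and Slc9a3, the main sodium and proton exchanger, by 1.69. Scnn1g, a subunit of the epithelial sodium channel, was at 1.06, 2.26 and 4.08 FPKM in sham and 0.15, 0.39 and 1.04 at 30 mpk. It did not overlap (-2.33 ± 0.34, adjusted p = 7.33e-06) and lay below vehicle as well, by -1.499 (adjusted p = 0.0124). Scnn1b was also below both. Car2 and Guca2a were not called, though Guca2a was lower with length and GC taken out (-0.325, adjusted p = 0.0108), and Guca2b and Muc3 were the 2 that rose; with length and GC taken out the former lost its call and the latter went from 0.21 to 0.50.

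Slc10a2, one of the 10 largest falls, is the sodium-dependent bile acid transporter best known from the ileum (chr8:5133219-5155351, GRCm39). It was at 29, 59.84 and 80.65 FPKM in sham and 5.74, 10.68 and 17.51 at 30 mpk. No treated mouse reached a sham mouse. The log2 fold change was -2.23 ± 0.22 (adjusted p = 1.54e-07), beside -1.43 in vehicle, and -0.79 against vehicle (adjusted p = 0.0523), which became a call with length and GC taken out (-0.81, adjusted p = 0.0363). Slc51a, a subunit of the basolateral bile acid exporter picked from the list of colonocyte genes, fell by 1.02. Sis, the sucrase-isomaltase of the brush border, fell by 2.33 from a sham median of 2.39 FPKM.

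Enzymes and pumps of drug metabolism lay below sham. Of 24 tested 15 were lower and 2 higher (median -0.63 beside -0.66 in vehicle), where 29.8% of all genes were lower and 31.3% higher. Against vehicle 4 were higher and 3 lower, shares near the 14.3% and 17.6% of all genes. Abcb1a, the efflux pump P-glycoprotein, ran from 124.8 to 237.9 FPKM in sham and from 39.18 to 86.11 at 30 mpk, without overlap (-1.41, adjusted p = 1.4e-07). Its difference from vehicle was -0.03 (95% interval -0.62 to 0.57). Cyp2d9, a cytochrome of a gene family with close copies, was at 5.02, 6.975 and 8.3 FPKM in sham and 0.53, 1.475 and 2.42 at 30 mpk (-2.19 ± 0.19, adjusted p = 2.06e-08). Gclc, the rate-limiting subunit of glutathione synthesis, fell by 0.65 and Cyp2s1 by 0.60, both without overlap. Hmox1, the heme oxygenase of oxidative stress, and Gsta4 were higher (0.66 and 0.22); with length and GC taken out the former was at 0.40 and the call of the latter ended.

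Genes of ketone and fatty acid metabolism lay mostly below sham. Of 14 genes of ketogenesis, fatty acid oxidation and PPAR response, 11 were lower and none higher (median -0.60 beside -0.38 in vehicle). Ehhadh, a peroxisomal enzyme, ran from 16.34 to 19.81 FPKM in sham and from 8.2 to 13.03 at 30 mpk (-0.72 ± 0.08, adjusted p = 7.07e-08). Cpt1a, the gate of mitochondrial fatty acid import, fell by 0.59, also without overlap. Ppara, the receptor that drives such genes, fell by 1.83 from a sham median of 5.825 FPKM to 1.32, and its groups did not overlap. Of 17 genes of cholesterol synthesis 6 were lower, a share near the 29.8% of all genes, and none higher. Adipocyte genes were lower in 5 of 10, in 3 without sham replicate 5 or with no filter, and in 7 without 30 mpk replicate 1. Lep, the adipocyte hormone leptin, ran from 0 to 5.3 FPKM in sham and from 0.02 to 0.93 at 30 mpk. The sum of the adipocyte list was 44.2 to 1551 FPKM in sham and 52.25 to 774.7 at 30 mpk, and how much attached fat each sample held was not tested.

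Tuft cell genes stayed low. Of 9 tested 7 were lower and 1 higher (median -0.62 beside -0.80 in vehicle). Gnat3, the taste G protein gustducin of tuft cells, ran from 0.64 to 2.13 FPKM in sham and from 0.04 to 0.51 at 30 mpk, without overlap (-2.17 ± 0.31, adjusted p = 3.08e-06). Pou2f3, the factor that makes tuft cells, fell by 0.83 and Trpm5 by 1.13. The one that rose, Alox5ap (1.07), is also a gene of myeloid cells. Of 17 tight junction genes 8 were lower and 4 higher, and 10 and 1 with length and GC taken out: Cgn and Ocln, encoding cingulin and occludin, fell by 0.53 and 0.50, and Cldn4 rose by 1.36. Cldn3 and Cldn7 turned from higher (0.41 and 0.20) to lower (-0.12 and -0.11) with length and GC taken out.

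Crypt and cell cycle genes were called in shares near or under the 31.3% higher and 29.8% lower of all genes. Of 16 stem and Wnt genes 3 were higher and 6 lower, with Lgr5, the stem cell receptor, not called (0.21; 0.49 with length and GC taken out, adjusted p = 0.000405), Axin2 at -0.46 and Znrf3 at -0.54. Of 18 proliferation genes 3 were higher and 4 lower, with Mki67 at -0.46, a call that ended with length and GC taken out (-0.19, adjusted p = 0.0818). The clock output and repressor genes, which stood far below sham in vehicle (median -1.72), were 0.33 below it at 30 mpk, with 8 of 11 lower. Nr1d2, the repressor REV-ERB-beta, was at 37.19, 45.29 and 48.93 FPKM in sham, 28.21, 33.74 and 39.52 at 30 mpk and 4.35, 15.04 and 28.06 in vehicle. It lay 0.38 below sham and 1.19 above vehicle (adjusted p = 5.94e-05). The call against sham was lost with all 50 mice in the fit (-0.37, adjusted p = 0.087), and with length and GC taken out the fold change was -0.22. Dbp, a clock output factor, was not called against sham (-0.26; called at -0.55 with length and GC taken out, adjusted p = 0.016) and was 2.18 above vehicle. Against vehicle 10 of the 11 were higher at 30 mpk and none lower. The exception was the clock gene Per1 (0.37 against vehicle, edgeR adjusted p = 0.198). Per1 ran from 8.68 to 13.23 FPKM in sham and from 3.93 to 8.27 at 30 mpk, without overlap. Its log2 fold change against sham was -0.89, beside -1.25 in vehicle.

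None of the classic targets of AhR was called higher than sham by edgeR. Of 11 listed, 9 passed the filter, 3 were lower, and 0 were higher also at an unadjusted p under 0.05. Cyp1a1, the target most often used to read out AhR, was at 0.04, 0.35 and 0.51 FPKM in sham and 0.08, 0.33 and 0.71 at 30 mpk, with full overlap (log2 fold change -0.04, 95% interval -0.78 to 0.69, adjusted p = 0.921). The level is low: 168 counts over all sham libraries and 150 over those at 30 mpk. Cyp1b1 was at 0.05, 0.125 and 0.33 FPKM in sham and 0.06, 0.245 and 0.32 at 30 mpk (0.56, 95% interval -0.02 to 1.13, adjusted p = 0.0896). It was called higher with length and GC taken out (0.73, adjusted p = 0.0342), with limma-voom sample weights (0.67), without sham replicate 3 (0.76) and without 30 mpk replicate 10 (0.67), and in vehicle it stood 4.54 above sham. Ahrr, the AhR repressor, lay at -0.11 and Nqo1, a quinone reductase, at -0.10, neither called, though Nqo1 was lower with length and GC taken out (-0.27, adjusted p = 0.0138). Tiparp, a target that limits AhR signalling, was lower than sham (-0.40, adjusted p = 5.57e-05), and so was Lrat, which esterifies retinol (-0.63, adjusted p = 1.03e-05).

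Ugt1a6a, a glucuronosyltransferase on the list of targets, fell most. It was at 1.71, 2.795 and 3.58 FPKM in sham and 0.37, 0.61 and 1.11 at 30 mpk, and the groups did not overlap. The log2 fold change was -1.99 ± 0.21 (adjusted p = 9.05e-08), beside -0.99 in vehicle, and -0.98 against vehicle (adjusted p = 0.0355). Ugt1a6a shares its last exons with the other Ugt1a genes, among which Ugt1a1 fell by 1.86, and reads in those exons cannot be told apart. Its upstream window (chr1:88134559-88134808, plus strand, GRCm38.p6, RefSeq) is shown because it is the target with the clearest change.

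Ugt1a6a: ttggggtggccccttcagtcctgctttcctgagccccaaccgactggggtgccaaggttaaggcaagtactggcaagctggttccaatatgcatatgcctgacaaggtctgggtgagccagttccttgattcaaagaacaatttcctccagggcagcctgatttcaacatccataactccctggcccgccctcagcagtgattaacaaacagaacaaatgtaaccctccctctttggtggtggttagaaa

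The window holds no GCGTG, the core of the site bound by AhR with ARNT, on either strand, which says only that these letters are not in these 250 bases. Of the 8 listed targets with a RefSeq window, 5 held it (Cyp1a1, Cyp1b1, Ahrr, Tiparp and Lrat), beside 30.9% of all genes. The other 5 motifs searched were found in none of the 8. Ahr itself lay at 0.03 (95% interval -0.09 to 0.14, adjusted p = 0.7), with a mean of 5.02 FPKM in sham and 5.03 at 30 mpk, and was called higher with length and GC taken out (0.22). Of its partners Ptges3, a cochaperone of the cytoplasmic AhR complex, rose by 0.30, and Arnt fell by 0.25, a call that ended with length and GC taken out (-0.03).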

How the data were processed

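RNA-seq counts and FPKM per gene were deposited in 1 table of 56691 genes with exonic lengths. Per the submitters' processing notes, cutadapt 1.9.1, HISAT2 2.2.1, HTSeq 0.6.1 and DESeq2 were used with GRCm39. No source used here states how strand and multimapped reads were handled. The deposited FPKM values followed from the deposited counts and lengths and serve here as levels per length. Counts were tested with edgeR 4.0.16 (R 4.3.3) by the quasi-likelihood test with TMM normalization and filterByExpr (count minimum 10), on the 20 sham and 30 mpk libraries. Vehicle against sham used the same test, and 30 mpk against vehicle a fit of the 40 TNBS libraries. Called means a Benjamini-Hochberg adjusted p under 0.05 over all genes tested. Each library is taken as 1 mouse, which the labels do not state, so p-values measure the spread between these libraries, which may be technical in part. Same-numbered libraries did not deviate together, so the numbers were not used as pairs.

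The rule for genes to name took every AhR target that passed the filter. It added the strongest 10 rises and 10 falls by log2 fold change among called genes reaching a mean of 2 FPKM in either group (predicted genes, pseudogenes and receptor segments left out). From each list it took at most 2 called genes, those of lowest p. All other genes were named after their values were seen. Members and lists were chosen with earlier results of these data known. Alternatives were other normalizations, filters and tools (limma 3.58.1, DESeq2 1.42.0), log2(FPKM + 0.5), a replicate block, each library left out and, added after seeing the data, offsets from splines of length and transcript GC (98.9% of tested genes had a GC value). The scripts were tested on simulated data. Intervals are 95% and rest on the fit. Results for some genes are not reported here.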

Additional observations from a re-analysis of the deposited data

Results flagged for a closer look

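In groups of 10 mice, a library stood apart from the rest of its group on the log2 scale in 21 of 202 gene and group pairs examined, by the size of the gap to the nearest library relative to the group's range. Chance flags about 1 in 20 such groups, and genes that move together are not independent.

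Of the 21, 5 fell on sham replicate 5, which was the highest sham mouse for Mcpt1 (21.58 FPKM), Mcpt2 (7.82), Ccl8 (6.2), Retnlg (6.99) and Reg4 (1520). Replicate 1 of the 30 mpk group was the lowest of its group for Mcpt1 (21.06), Mcpt4 (2.43), Sdf2l1 (31.26) and Ptgis (2.24) and the highest for Clock (8.77). The call of Clock against sham (-0.30) ended with length and GC taken out (-0.002, adjusted p = 0.976), and Sdf2l1 went from 0.77 to 0.36. Replicate 2 of the 30 mpk group was the highest for the pancreatic genes Pnliprp1 (112.2), Ctrl (136.2) and Cela1 (159.5). Without that library the log2 fold change of Pnliprp1 against sham was 2.02 in place of 4.69, and that of Ctrl 0.50 in place of 3.93, no longer called (adjusted p = 0.249).

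Sham replicate 3 was the highest sham mouse for the class II genes Cd74 (308.6) and H2-Aa (38.18). Sham replicate 4 was the lowest for Reg3b (9.2) and the highest for Clock (9.16). The lowest Reg3b value at 30 mpk, 0.1, came from replicate 10. Single libraries were also apart for Cd79b (9.32 in 30 mpk replicate 3), Serpinh1 (15.92 in sham replicate 6) and Cyp1a1 (0.04 in sham replicate 7).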

How the results depend on the processing

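Counts of genes called against sham stayed within 1.5 times the reported values in every alternative run, except that of genes at least 2-fold, which was 870 and became 2553 with no filter on low counts, 466 with a stricter one and 409 with limma on log2 FPKM. Leaving out each library in turn gave 9898 to 10670 genes called (5044 to 5425 higher, 4828 to 5245 lower) and 837 to 1024 at least 2-fold, the highest of each without 30 mpk replicate 1. Cyp1a1 (-0.04) changed sign with limma-voom sample weights (0.043) and without 30 mpk replicates 1 and 10 together (0.171). Over single libraries left out it ran from -0.263 to 0.070, with 0.040, 0.068 and 0.070 without 30 mpk replicates 1, 9 and 10, and 0.039, 0.016 and 0.039 without sham replicates 5, 8 and 10. Aldh3a1 ran from -0.248 to 0.013, the latter without sham replicate 3. With length and GC offsets Ahrr was 0.163 and Cdx1 -0.002, and with the replicate block added 0.191 and -0.003. The replicate block alone ended the calls of Ctrl (1.042) and Glb1l2 (-1.906) and no other among the genes chosen by the naming rule; the numbers do not pair the mice. Calls of Ctrl were also lost in DESeq2, limma and the rank-sum test and without 30 mpk replicate 2, those of Lep and Glb1l2 in limma-voom and the rank-sum test, that of Pnpla3 in limma-voom, that of mt-Nd4 in quantile limma-voom, and those of Il1b, Lcn2, Nr1d2 and mt-Nd4 with all 50 mice.

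Of vehicle against sham, the rank-sum test gave Tiparp -0.116, Pnpla3 -1.085, Hspe1 -0.009 and Nsdhl 0.003, and limma-voom with quantile normalization Pnpla3 -0.675 and Tdo2 -0.169, all of opposite sign to edgeR. Of 30 mpk against vehicle, so did the rank-sum test for Pnliprp1 (1.695), Mcpt2 (1.534), Ctrl (0.283), Plvap (0.214), Tie1 (0.024), Hspb1 (0.555), Clps (1.549), Alox15 (0.243) and Ptgis (0.115); quantile limma-voom for Mcpt2 (1.520), Tie1 (0.020), Ocln (0.031), Hspb1 (0.234), Clps (1.228) and Alox15 (0.055); DESeq2 for Clps (1.648); and the fit of the 2 groups alone for Tie1 (0.002). Calls against vehicle were also lost for 9 named genes in the rank-sum test, 10 in quantile limma-voom and 5 in the fit of the 2 groups alone, and those of vehicle against sham for 4 in the rank-sum test, 9 in quantile limma-voom and 1 in DESeq2. The causes were not tested.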

Other observations

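Some pancreatic genes, Cela1 and Clps among them, were found in all 20 colon libraries, at levels that varied widely. Cela1, a pancreatic elastase, was at 17.25 FPKM or more in every sham library and at 48.31 or more at 30 mpk. Of 19 genes on the list, 4 passed the filter, and the sum of the list was 31.19 to 58.41 FPKM in sham, 91.85 to 3997 at 30 mpk, the highest in replicate 2, and 32.44 to 59670 in vehicle. Clps, the colipase gene, did not overlap between sham (8.27 to 16.87) and 30 mpk (17.92 to 328.3). The listed genes below the filter were far lower in sham, and their means at 30 mpk came largely from the highest library. Prss2 averaged 0.285 FPKM in sham and 36.4 at 30 mpk, where its highest library held 348.6. For Ctrb1 these values were 0.753, 128 and 1232.82, and for Pnlip 0.034, 15 and 141.58.

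Of 10 listed genes of squamous epithelium 4 passed the filter and 3 of these were higher than sham, 2 with length and GC taken out. Without a filter 4 of 9 were higher, so the count of those that passed carries no weight. Krt13, a keratin of squamous epithelium, ran from 0 to 0.28 FPKM in sham and from 0.39 to 3.27 at 30 mpk, beside 1.11 to 45.98 in vehicle. With 29 counts over all sham libraries and 386 over those at 30 mpk, it passed only through its 30 mpk level. Krt14 rose by 2.34 on the log2 scale. Of those below the filter, Krt4 averaged 0.037 FPKM in sham and 0.048 at 30 mpk, Krt5 0.043 and 0.121, Krt6a 0 and 0.004, Trp63 0.023 and 0.018 and Dsg3 0.051 and 0.061, and Sprr3 was at 0 in both.

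Of 11 genes on the distal Hox list, which also holds Cdx1, not itself a Hox gene, 7 were called higher and 1 lower. With length and GC taken out these counts were 6 and 2. Cdx1 was higher by 0.46, a call that ended with length and GC taken out (-0.002, edgeR adjusted p = 0.971). Hoxd13 had a median of 22.76 FPKM in sham and 34.88 at 30 mpk, with overlap (log2 fold change 0.67, adjusted p = 0.00856).

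Xist ran from 39.02 to 51.46 FPKM in sham and did not exceed 29.33 at 30 mpk. With all mice it was not called (-0.97, adjusted p = 0.0579). Without 30 mpk replicate 1, which held 0.1, it was lower by 0.82 on the log2 scale (adjusted p = 8.89e-10). Xist is among the longest genes, and with length and GC taken out the fold change with all mice was -0.62 (adjusted p = 0.238).

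Of the 10 largest falls, the row named 7SK, a symbol carried by several rows of a small nuclear RNA without a poly(A) tail, ran from 3.67 to 6.73 FPKM in sham and from 0 to 2.22 at 30 mpk.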
